A study of Mus musculus with 4 samples.

Results

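Ephrins, Slits and netrins are cell-surface or secreted cues, and the Eph, Robo, Dcc, neogenin and Unc5 proteins are their receptors. The group described here holds 38 genes of these families among 25177 gene symbols of the table. Members were taken by gene symbol from the ephrin, Eph, Slit, Robo, netrin and Unc5 families, as far as analysed here, together with Dcc and Neo1, and a gene with several RefSeq transcripts is represented by the transcript with the highest mean expression. Their nuclear RNA was compared in NIH-3T3 cells, a mouse embryonic fibroblast line, between 2 libraries made after 6 h of doxycycline at 500 ng/ml (Dox) and 2 made after solvent alone (noDox). Cells of both groups carried the same constructs, which were H2B-mCherry, the rtTA3G transactivator and a CDX2 transgene under the doxycycline-responsive TRE3G promoter, and all were kept in puromycin. CDX2 is a homeobox transcription factor of the posterior embryo, gut epithelium and trophectoderm. No line without the transgene was given doxycycline among the libraries used here, so CDX2 and the drug cannot be told apart.

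Eph receptors form a large family of receptor tyrosine kinases that bind ephrins on neighbouring cells. A-type ephrins are held in the membrane by a lipid anchor and B-type ephrins span it, so that signals can run into either cell, which in many tissues leads to repulsion and boundaries between cell populations. Slits are secreted proteins that act through Robo receptors, and netrins are laminin-like cues read by Dcc and neogenin and, often as repulsion, by Unc5 receptors. Best known from axon guidance, these families also act in blood vessels and in embryonic mesenchyme.

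Induction was plain in the libraries, since Cdx2 stood at 612 CPM (counts scaled by library size) with Dox, against 4.96 CPM with noDox, a 124-fold rise (95% interval 109 to 140) in the authors' deposited table. That table gives 1 fold change and 1 mean level per transcript and no value per library, so the group levels given here are the mean log2 CPM of the table shifted up or down by an equal share of the log2 fold change. Its standard errors depend almost wholly on level and fold (99.2% of the variance of their logarithm over 19541 rows), so a gene's own replicates hardly enter its p-value. The effective size of the 4 libraries was about 45700000 counts as a geometric mean, and the size of each is not given. A transcript without reads still has a log2 fold change of -0.21 in the deposited table. The part of this offset in the values of genes with few counts was not measured. All 10 fibroblast markers listed were tested, at 5.64 CPM to 2086 CPM, and 6 of them fell and 0 rose, with a summed level of 7145 CPM with Dox and 8293 CPM with noDox, where 13.4% of all genes tested were called lower. When all standard errors were widened 2.08 times, the robust SD of the test statistic over the genes tested, Pdgfrb was still called (adjusted p 8.33e-06), and the calls of Col1a1, Col1a2, Col3a1, Vim and Fn1 were lost (adjusted p 0.0910 to 0.321). Of 8 neuronal markers 0 reached the test (highest 0.0870 CPM, with Snap25 and Syt1 without reads, and sums of 0.236 CPM with Dox and 0.221 CPM with noDox that include the 0.5 counts added per library). Of 8 endothelial markers, Cdh5 was the 1 tested (3.86 CPM), while Emcn and Erg had no reads, and the list summed to 4.09 CPM with Dox and 4.75 CPM with noDox. Of 7 epithelial markers, Cdh1 was the 1 tested and fell (-1.62 ± 0.22, log2 fold change ± standard error), with a list sum of 0.730 CPM with Dox and 1.62 CPM with noDox. Krt19 of the same list lay under the floor and went the other way, with 0.128 CPM with Dox and 0.0105 CPM with noDox (adjusted p 2.07e-07 in the authors' deposited table). Its noDox value is no higher than that of a gene without reads (0.0118 CPM with noDox), which holds only the 0.5 counts added. Of 5 immune markers 2 were tested, and Cd14 rose (0.55 ± 0.10), with a list sum of 9.05 CPM with Dox and 6.67 CPM with noDox. In bulk RNA, fewer cells of a type and less RNA per cell cannot be told apart, and the part of these markers in the results below was not tested.

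Of the 38 guidance genes, 16 reached the floor of 10 counts per library, as a geometric mean, and were tested. With Dox, 6 of the 16 fell (Efnb2, Epha1, Epha2, Ephb3, Slit2 and Neo1), 1 rose (Efnb3) and 9 did not pass the test, at an adjusted p of the authors' limma test under 0.05. Over the 12355 genes tested, 13.4% were called lower and 11.3% higher by the same rule, 24.7% in all. Rises made up 45.7% of those calls, and 46.4% with p adjusted over the genes tested alone. They made up 60.1% with p adjusted so and the median of 76 cytosolic ribosomal protein genes set to 0. The falls of the abundant members were small, between 1.18-fold and 1.31-fold. Every one of the 7 calls was lost when all standard errors were widened by that factor, so that 0 of 16 were called. Efnb2 came closest then, with an adjusted p of 0.0824. Real changes enter the factor too. Another 11 members had reads under the floor and 11 had none in any library.

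**Figure D1:**
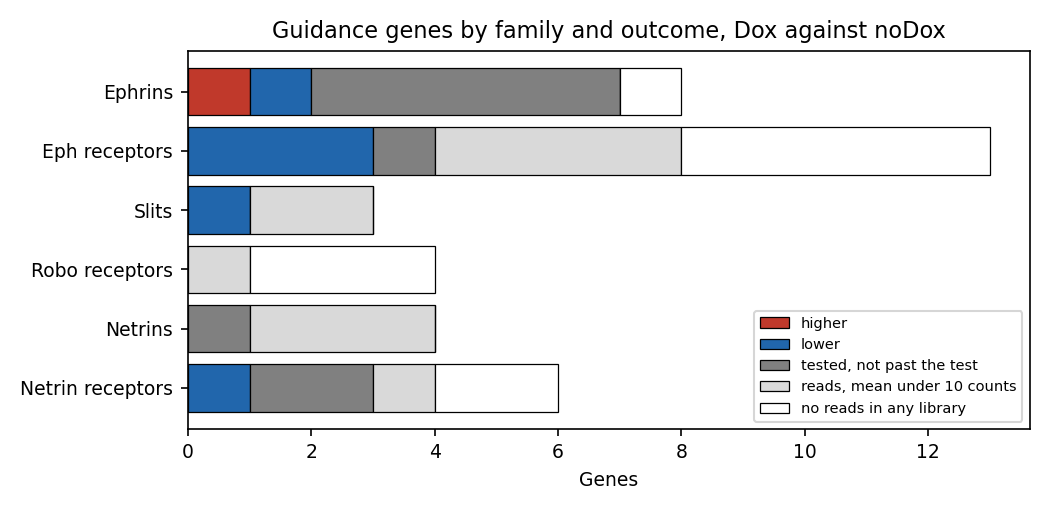
Number of guidance genes in each family (horizontal axis, genes) by outcome of the comparison of Dox with noDox. Of 8 ephrin genes 7 were tested, of 13 Eph receptor genes 4, of 4 Robo genes 0, and the 6 genes called lower come from the ephrin, Eph, Slit and netrin receptor families.

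The promoters of all 6 members that fell are shown here because these genes moved in the same direction and CDX proteins are known to bind AT-rich sites with a TTTAT core. Each line gives the 250 bases before the RefSeq start of the gene (RefSeq, build GRCm38.p6), 5′ to 3′ on the gene's strand, with any match to TTTAT or TTTATNG on either strand in capitals. Efnb2, Slit2 and Epha1 hold a match, and Neo1, Epha2 and Ephb3 hold none. TTTAT lies in 23.8% of the promoter windows of genes tested, and also in that of Unc5b, which did not pass the test.
Efnb2 (chr8:8661243-8661492, minus strand): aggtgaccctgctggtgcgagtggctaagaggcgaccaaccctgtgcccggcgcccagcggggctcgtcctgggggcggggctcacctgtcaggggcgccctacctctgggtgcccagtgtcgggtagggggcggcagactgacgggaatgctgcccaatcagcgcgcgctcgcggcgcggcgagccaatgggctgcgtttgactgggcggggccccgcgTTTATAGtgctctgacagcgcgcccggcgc
Slit2 (chr5:47982905-47983154, plus strand): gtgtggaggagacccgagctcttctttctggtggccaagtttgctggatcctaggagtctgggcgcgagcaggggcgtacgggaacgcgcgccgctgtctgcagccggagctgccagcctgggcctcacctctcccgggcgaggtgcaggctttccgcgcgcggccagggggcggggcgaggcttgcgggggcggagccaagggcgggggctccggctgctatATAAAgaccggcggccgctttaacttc
Epha1 (chr6:42373269-42373518, minus strand): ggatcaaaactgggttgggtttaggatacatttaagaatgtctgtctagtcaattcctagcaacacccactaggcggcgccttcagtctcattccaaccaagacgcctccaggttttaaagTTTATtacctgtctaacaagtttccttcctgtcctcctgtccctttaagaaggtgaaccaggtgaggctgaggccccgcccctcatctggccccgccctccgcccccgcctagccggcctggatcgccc
Neo1 (chr9:59036442-59036691, minus strand): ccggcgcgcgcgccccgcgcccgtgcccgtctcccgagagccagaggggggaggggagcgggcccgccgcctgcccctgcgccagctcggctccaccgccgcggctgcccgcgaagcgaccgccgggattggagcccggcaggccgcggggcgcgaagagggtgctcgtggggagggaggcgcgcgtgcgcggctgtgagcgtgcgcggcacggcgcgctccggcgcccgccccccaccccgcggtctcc
Epha2 (chr4:141300971-141301220, plus strand): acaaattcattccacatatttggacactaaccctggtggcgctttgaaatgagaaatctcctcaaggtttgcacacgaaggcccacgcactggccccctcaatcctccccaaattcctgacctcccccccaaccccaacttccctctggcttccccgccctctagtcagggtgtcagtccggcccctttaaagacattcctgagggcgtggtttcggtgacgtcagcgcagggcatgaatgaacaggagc
Ephb3 (chr16:21204545-21204794, plus strand): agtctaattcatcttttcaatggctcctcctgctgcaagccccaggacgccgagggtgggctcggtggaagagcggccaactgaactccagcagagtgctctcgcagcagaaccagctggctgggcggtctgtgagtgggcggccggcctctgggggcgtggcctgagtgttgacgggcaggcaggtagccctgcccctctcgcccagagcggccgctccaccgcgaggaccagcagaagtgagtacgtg

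In the promoter of Efnb2 the capitals begin 30 bases before the start and hold TTTATAG, the 1 match to TTTATNG among the 6 called members that had a promoter entry. In that of Slit2 they begin 27 bases before the start and hold TTTAT on the opposite strand. In that of Epha1 the match lies 129 bases before the start. Epha6 and Ntn4, members that were not tested, hold TTTATNG as well. The matches of Efnb2 and Slit2 overlap TATAAA, the TATA box letters, which lie on the strand opposite to Efnb2 and on that of Slit2, so the letters do not tell a CDX site from a TATA box. Promoters were found for 14 of the 16 tested members (not for Efnb3 and Unc5d). Of these, 4 held TTTAT, 1 held TTTATNG and 2 held TATAAA, against 23.8%, 6.04% and 6.41% of 12305 promoter windows of genes tested. The tested members' promoters had a median GC content of 65.0% (54.4% to 83.2%), against a median of 60% over those windows. A match is a description of the letters, and factor binding was not measured here.

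Levels are compared between genes as CPM per kb of exon. Epha2 was the most abundant member, with 24.7 CPM per kb with Dox and 29.6 CPM per kb with noDox. Neo1 followed at 20.1 with Dox and 25.1 with noDox, and then Ephb4 at 17.8 with Dox and 17.1 with noDox. Efnb2 (10.8 with Dox, 14.2 with noDox) and Unc5b (12.5 with Dox, 12 with noDox) came next in CPM per kb, with mean levels of 12.4 and 12.2 CPM per kb, and Unc5b stood above Efnb2 with Dox and below it with noDox. Efna5, Ephb3, Efna1 and Slit2 held 4.85 to 8.93 CPM per kb as a mean over both groups. Efna4, Efna3, Efnb1 and Ntn3 held 0.911 to 3.20, and Epha1, Efnb3 and Unc5d only 0.0634 to 0.171. The cells held transcripts of A-type and B-type ephrins and of both Eph classes at once, together with 1 Slit and 2 abundant netrin receptors.

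**Figure D2:**
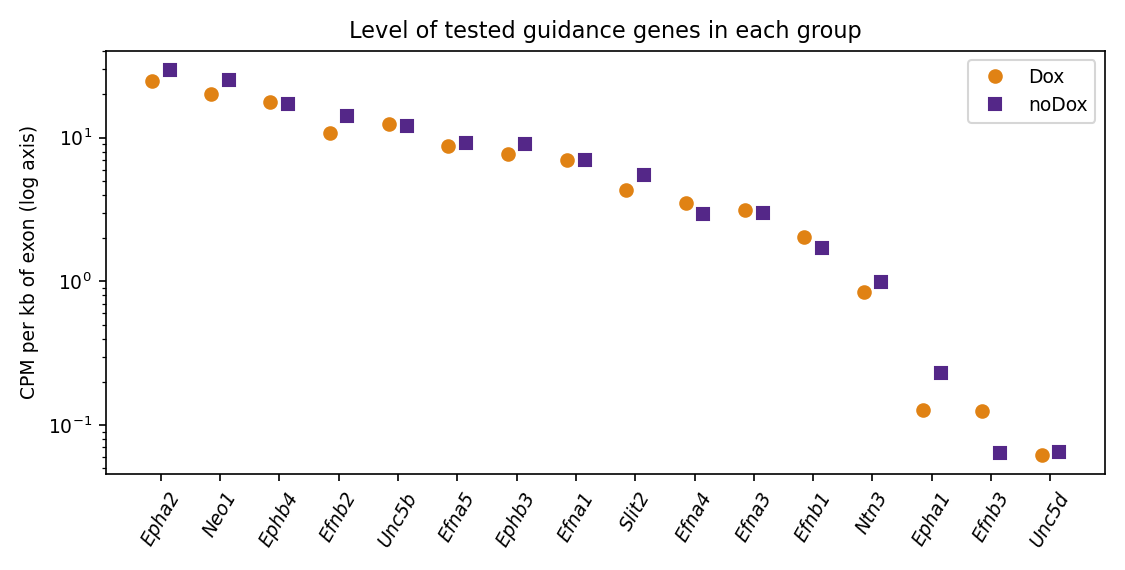
Level of the 16 tested guidance genes in CPM per kb of exon (log axis), with Dox as orange circles and noDox as purple squares, computed from the mean level and fold change of the authors' table and ordered by mean level. Epha2, at 24.7 with Dox and 29.6 with noDox, and Neo1 stand highest, and the 2 groups differ by less than 2-fold for every gene shown.

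Among the B-type ephrins, 1 gene fell, 1 rose and 1 did not pass. Efnb2, a transmembrane ligand best known from arterial endothelium (NM_010111, mm10 chromosome 8, 8617436 to 8661242), stood at 51.8 CPM with Dox and 68.1 CPM with noDox. The authors' deposited table gives Efnb2 a log2 fold change of -0.39 ± 0.067 (adjusted p 1.25e-07), a 1.31-fold fall with a 95% interval of 1.20 to 1.44. The 2 Efnb2 transcripts of the table (4691 and 4782 bases) gave -0.39 each, and may count mostly the same reads. Efnb3 (NM_007911, chromosome 11, 69554092 to 69560237), the ephrin-B of the midline of the nervous system, had 0.401 CPM with Dox and 0.205 CPM with noDox. The value of 0.97 ± 0.32 (log2, adjusted p 0.0188, limma) for Efnb3 in the authors' deposited table is a 1.96-fold rise with a 95% interval of 1.27 to 3.02. It rests on 12.6 counts per library (geometric mean), and Efnb3 is no longer tested with a floor of 50 counts. Efnb1, the X-linked ephrin-B gene (chromosome X, 99136061 to 99149022), had 6.80 CPM with Dox and 5.75 CPM with noDox. In the authors' deposited table Efnb1 missed the threshold, at a log2 fold change of 0.24 ± 0.11 (adjusted p 0.131, 95% interval 0.030 to 0.46). With that ribosomal protein median set to 0 and p adjusted over the genes tested, Efnb1 and Efna4 passed as higher (adjusted p 0.0311 and 0.0283). Without that shift, adjustment over the genes tested alone gave 0.0820 and 0.0737.

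The A-type ephrins gave 0 calls among 4 tested, and Efna2 had no reads. Efna5, whose product is a repulsive cue of the visual map, was the most abundant of them, with 45.7 CPM with Dox and 48.2 CPM with noDox. For Efna5 the authors' deposited table has a log2 fold change of -0.08 ± 0.069 (adjusted p 0.647), with a 95% interval of -0.21 to 0.057. Efna1, first known as a TNF-induced gene of endothelium, had 10.2 CPM with Dox and 10.4 CPM with noDox (-0.02 ± 0.089, 95% interval -0.19 to 0.16, in the authors' deposited table), and its sign turns with the ribosomal protein scaling (0.03). Efna3 had 3.81 CPM with Dox and 3.64 CPM with noDox (0.07 ± 0.13, adjusted p 0.873, in the authors' deposited table). Efna4 had 5.56 CPM with Dox and 4.65 CPM with noDox (0.26 ± 0.11, adjusted p 0.118, in the authors' deposited table). Efna1, Efna3 and Efna4 lie side by side within 66.3 kb of chromosome 3 (89271730 to 89338028), all on the minus strand. Over all their exons in GENCODE M21, Efna3 and Efna4 share 14.1% and 10.5% of bases with a noncoding or predicted gene on the opposite strand (Gm15998 and 4731419I09Rik). Their values may be uncertain for that reason. Whether the shared bases lie in the RefSeq transcripts counted was not tested, and the share of reads involved was not measured.

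Of the Eph receptors, 4 of 13 were tested and 3 of them fell, where 13.4% of all genes tested were called lower. Epha2, a receptor typical of epithelial and tumour cells (NM_010139, chromosome 4, 141301221 to 141329384), had 96.4 CPM with Dox and 115 CPM with noDox. The fall of Epha2 in the authors' deposited table was -0.26 ± 0.064 on the log2 scale (adjusted p 7.87e-04), or 1.20-fold with a 95% interval of 1.1 to 1.30. Ephb3, a receptor of B-type ephrins that is also known from the intestinal crypt (NM_010143, chromosome 16, 21204795 to 21223304), had 31.6 CPM with Dox and 37.3 CPM with noDox. For Ephb3 the fall in the authors' deposited table was -0.24 ± 0.071 on the log2 scale (adjusted p 0.00646), or 1.18-fold with a 95% interval of 1.07 to 1.30. Ephb4, the receptor that pairs with ephrin-B2 in veins and arteries (chromosome 5, 137350109 to 137374522), did not pass the test. It had 77.1 CPM with Dox and 73.9 CPM with noDox (0.06 ± 0.066, adjusted p 0.785, in the authors' deposited table), and its 95% interval of 0.954-fold to 1.14-fold does not reach the size of the fall of Efnb2.

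Epha1, the founding member of the family (NM_023580, chromosome 6, 42358487 to 42373268), had 0.410 CPM with Dox and 0.746 CPM with noDox. A log2 fold change of -0.86 ± 0.26 (adjusted p 0.00691) in the authors' deposited table is a 1.82-fold fall with a 95% interval of 1.29 to 2.58, and it rests on a geometric mean of 24.8 counts per library. Of its exon bases in GENCODE M21, 236, or 6.01%, overlap exons of Zyx on the opposite strand. Zyx, a focal adhesion gene at 75.9 CPM, fell as well (-0.54 ± 0.065 in the authors' deposited table). The library kit was directional, but whether reads were counted by strand is not stated in the labels or headers, and the part of Zyx reads in the Epha1 value was not tested.

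The other Eph receptor genes analysed had few reads or none. Epha3, Epha5, Epha6, Ephb1 and Ephb6 are listed without reads in the authors' deposited table, and a count of 0 allows up to 3 counts, or 0.0656 CPM, per library. Epha7 and Epha8 lie at 0.158 counts and Epha4 at 0.484 counts per library as a geometric mean. Epha10, just under the floor at 9.61 counts, had a log2 fold change of 0.30 ± 0.39 in the authors' deposited table, while Efnb3 and Epha1 at 12.6 and 24.8 counts were the lowest tested members. The receptor genes at a testable level were Epha2, Ephb3 and Ephb4 at 34.3 CPM or more as a mean, with Epha1 at 0.553 CPM.

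**Figure D3:**
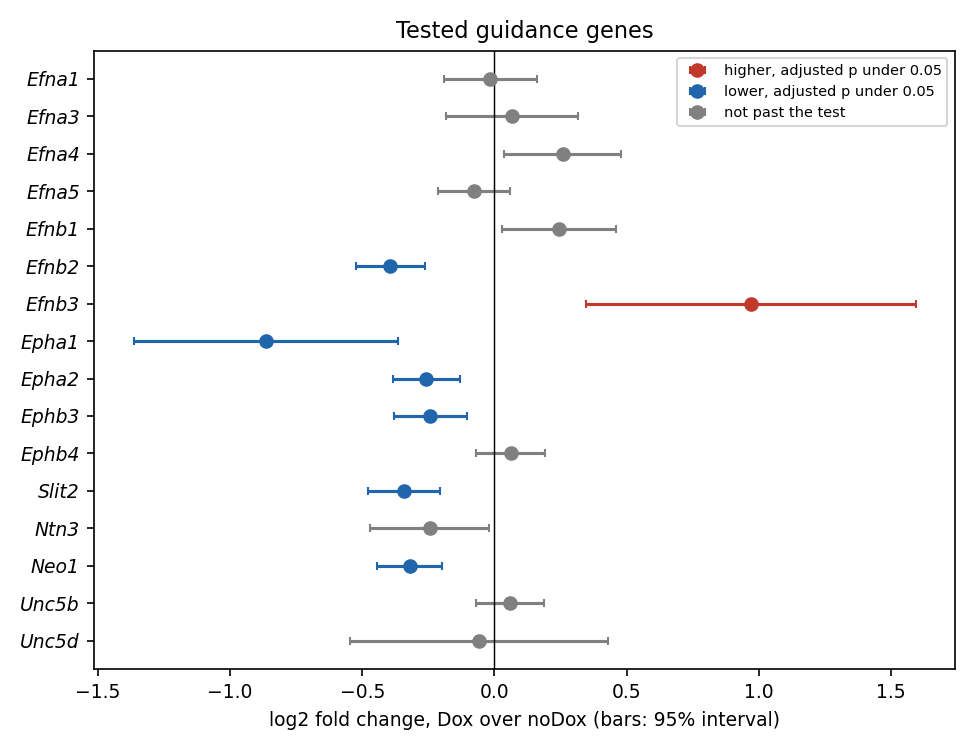
log2 fold change of Dox over noDox (horizontal axis) for the 16 tested guidance genes, with bars for the 95% interval from the authors' pooled standard errors. Efnb3 alone is called higher (0.97), 6 genes are called lower, and the intervals of Efnb3 and Epha1 are the widest among the called genes.

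In the Slit and Robo families, nuclear RNA of 1 ligand gene and of 0 receptor genes reached the test. Slit2, a secreted repellent cut from a large precursor (NM_001291228, chromosome 5, 47983155 to 48307736), had 42.6 CPM with Dox and 54.0 CPM with noDox. Slit2 had a log2 fold change of -0.34 ± 0.069 (adjusted p 1.47e-05) in the authors' deposited table, a 1.27-fold fall with a 95% interval of 1.15 to 1.39. The 4 Slit2 transcripts of the table (9832 to 9932 bases) each gave -0.34, and may count mostly the same reads. Robo1, Robo2 and Robo4, the last known from endothelium, are listed without reads. Robo3, a divergent member that acts in commissural axons, had 2.63 counts per library as a geometric mean, with a log2 fold change of 1.16 ± 0.55 (adjusted p 0.163) in the authors' deposited table. Slit1 had 5.48 counts (-0.57 ± 0.42, adjusted p 0.517) and Slit3 0.207 counts, so that Slit2 was the 1 Slit gene at a testable level.

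Among netrins and their receptors, neogenin fell while Unc5b did not pass the test. Neo1, a receptor of netrins and of repulsive guidance molecules (NM_008684, chromosome 9, 58874680 to 59036441), was the member with the highest CPM, 147 with Dox and 184 with noDox. Neo1 had a log2 fold change of -0.32 ± 0.062 (adjusted p 6.20e-06) in the authors' deposited table, a 1.25-fold fall with a 95% interval of 1.15 to 1.36. The 2 Neo1 transcripts of the table (7250 and 7329 bases) both gave -0.32, and may count mostly the same reads. Unc5b, a repulsive netrin receptor also found in vessels (chromosome 10, 60762594 to 60831581), had 72.9 CPM with Dox and 70.0 CPM with noDox. The authors' deposited table gives Unc5b a log2 fold change of 0.06 ± 0.066 (adjusted p 0.816), with a 95% interval of 0.952-fold to 1.14-fold. Unc5d, a receptor of the same family, stood at 0.568 CPM with Dox and 0.591 CPM with noDox (-0.06 ± 0.25, adjusted p 0.875, in the authors' deposited table). Dcc and Unc5c are listed without reads, and Unc5a had 0.0946 counts per library.

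Of the netrins, Ntn3 was the 1 tested, with 4.09 CPM with Dox and 4.85 CPM with noDox. At -0.24 ± 0.11 (log2) in the authors' deposited table Ntn3 missed the threshold (adjusted p 0.161). With p adjusted over the genes tested it still missed (adjusted p 0.101). It passed as lower once the trend of fold change with level was also removed (-0.30, adjusted p 0.0405). Its exons in GENCODE M21 share 1.74% of their bases with Tbc1d24 on the same strand and 2.72% with BC028777 on the other. Tbc1d24 had a mean of 14.2 CPM, above Ntn3, and the part of its reads in the Ntn3 value was not tested. Ntn1, the netrin of the floor plate, lay at 3.63 counts, Ntn5 at 1.55 and Ntn4 at 0.207 counts per library as geometric means.

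Of the 9 tested members with a mean of at least 10 CPM, 5 were called lower and 0 higher, where 16.0% of 7650 genes of that level were called lower and 10.9% higher, 26.9% in all. With widened standard errors 0 of the 9 were called. Their median log2 fold change was -0.24, against -0.01 over genes of that level. The trend of fold change with level was -0.077 at the level of Neo1. With that trend removed and p adjusted over the genes tested, the 5 falls stayed called. Neo1 then stood at -0.24 in place of -0.32, and Epha2 at -0.20 in place of -0.26. Of the 7 tested members under 10 CPM, 1 was called in each direction, and their median was 0.07. Over all 16 tested members the median was -0.07, against -0.00115 over all genes tested. The 7 called members had a median size of change of 0.34 on the log2 scale, and the 3047 genes called in all had 0.37. At a fold of at least 1.5 as well as an adjusted p under 0.05, Efnb3 and Epha1 stayed called among the members, and 5.65% of all genes tested were called. The members that fell span 14.8 kb (Epha1) to 325 kb (Slit2) of the genome, and those that did not pass 4.64 kb (Efna4) to 573 kb (Unc5d).

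**Figure D4:**
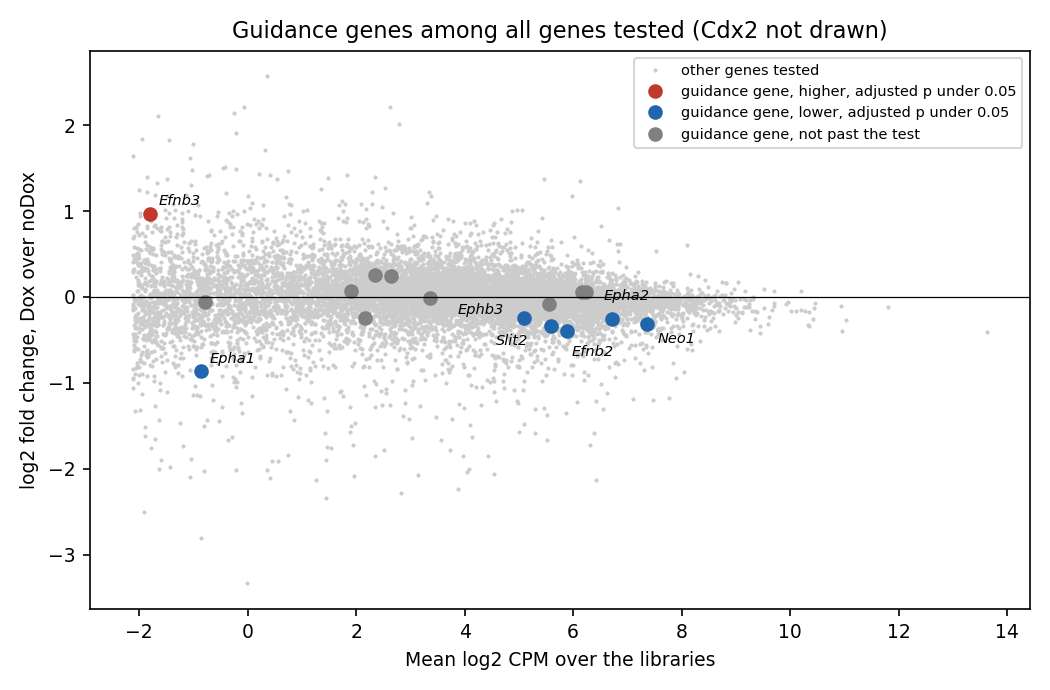
log2 fold change of Dox over noDox (vertical axis) against the mean log2 CPM over the libraries (horizontal axis) for the genes tested, with guidance genes coloured by outcome and the called ones named. Ephb3, Slit2, Efnb2, Epha2 and Neo1 lie together at high levels with falls of 0.24 to 0.39 on the log2 scale, and Efnb3 and Epha1 lie at low levels.

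Other genes of these pathways were followed in 4 lists, grouped by the receptors they serve. Of 28 tested genes of Eph and ephrin signalling, 6 fell, 1 rose and 21 did not pass, with a median log2 fold change of -0.09, beside 13.4% of all genes tested called lower and 11.3% higher. Abl2, a non-receptor tyrosine kinase that remodels actin, had 117 CPM with Dox and 212 CPM with noDox (-0.86 ± 0.062, adjusted p 2.95e-40, in the authors' deposited table). Ngef, or ephexin-1, an exchange factor bound by EphA receptors, had 19.0 CPM with Dox and 30.5 CPM with noDox (-0.69 ± 0.073, adjusted p 3.18e-19, in the authors' deposited table). Pik3r1, a regulatory subunit of phosphoinositide 3-kinase (-0.45 ± 0.069), Vav2, a guanine nucleotide exchange factor (-0.44 ± 0.073), and Rasa1, a Ras GTPase-activating protein (-0.34 ± 0.070), fell by less in the authors' deposited table. Fyn, a Src family kinase, was the 1 gene of this list that rose, with 55.0 CPM with Dox and 38.0 CPM with noDox (0.53 ± 0.068, adjusted p 4.22e-13, in the authors' deposited table). With widened standard errors 3 of the list were lower and 1 higher, and the calls of Vav2 and Rasa1 were lost (adjusted p 0.0707 and 0.225).

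Of 22 tested partner genes of the Slit and Robo families, 7 fell, 3 rose and 12 did not pass, with a median log2 fold change of -0.05. By the same rule, 13.4% of all genes tested were called lower and 11.3% higher. Flrt3, a membrane protein that binds Robo1 and Unc5 receptors, had 10.3 CPM with Dox and 28.8 CPM with noDox. The value of -1.49 ± 0.081 (log2, adjusted p 2.05e-72) for Flrt3 in the authors' deposited table was the largest in size among the tested genes of the 4 lists. Flrt2, its paralogue and a ligand of Unc5 receptors, had 73.2 CPM with Dox and 115 CPM with noDox (-0.66 ± 0.065, adjusted p 5.26e-22, in the authors' deposited table). Srgap1, a Slit-Robo GTPase-activating protein, rose to 4.64 CPM with Dox, against 2.20 CPM with noDox (1.07 ± 0.14, adjusted p 1.60e-13, in the authors' deposited table). Its more abundant paralogue Srgap2 fell there, with 52.1 CPM with Dox and 60.2 CPM with noDox (-0.21 ± 0.067, adjusted p 0.0166). Srgap3 did not pass (-0.01 ± 0.080, adjusted p 0.903). Arhgap24 (-0.84 ± 0.10) and Arhgap39 (-0.57 ± 0.087), GTPase-activating proteins of Rac and Cdc42, fell, and the actin regulator Vasp rose (0.37 ± 0.066), in the authors' deposited table. With widened standard errors 4 of the list were lower and 1 higher, and the calls of Vasp and Srgap2 were lost (adjusted p 0.114 and 0.694).

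Of 16 tested partner genes of netrin receptors, 3 fell, 0 rose and 13 did not pass, with a median log2 fold change of -0.06. Among all genes tested, 13.4% were called lower and 11.3% higher. Rgma and Rgmb, membrane-anchored repulsive guidance molecules that bind neogenin and act as BMP co-receptors, both fell, as Neo1 did. Rgma had 41.5 CPM with Dox and 77.3 CPM with noDox (-0.90 ± 0.068, adjusted p 1.11e-37, in the authors' deposited table). Rgmb had 28.5 CPM with Dox and 49.97 CPM with noDox (-0.81 ± 0.071, adjusted p 2.44e-28, in the authors' deposited table). Adora2b, an adenosine receptor gene, fell as well (-0.76 ± 0.098), while Dock1 (-0.14 ± 0.064), Bcar1 (0.14 ± 0.067) and the BMP receptor gene Bmpr2 (-0.13 ± 0.063) missed the threshold in that deposited table of the authors (adjusted p 0.168, 0.198 and 0.153). The 3 falls of this list were called also with widened standard errors, while the fall of Neo1 was not (adjusted p 0.172).

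Of 25 tested cytoskeletal and signalling genes downstream of these receptors, 3 fell, 2 rose and 20 did not pass, with a median log2 fold change of -0.02. The shares called among all genes tested were 13.4% lower and 11.3% higher. Limk1, a kinase of cofilin, fell (-0.33 ± 0.068) and its paralogue Limk2 rose (0.30 ± 0.091), with an adjusted p of 1.50e-05 and 0.00983 in the authors' deposited table. Ssh2, a cofilin phosphatase (-0.42 ± 0.074), and Pak3, a Rac and Cdc42 effector kinase (-0.55 ± 0.094), fell, and Rnd1 rose (0.36 ± 0.12), in the authors' deposited table. Rock2 did not pass (-0.16 ± 0.062, adjusted p 0.0530) in the authors' deposited table. With widened standard errors 0 of these 25 genes were called.

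**Figure D5:**
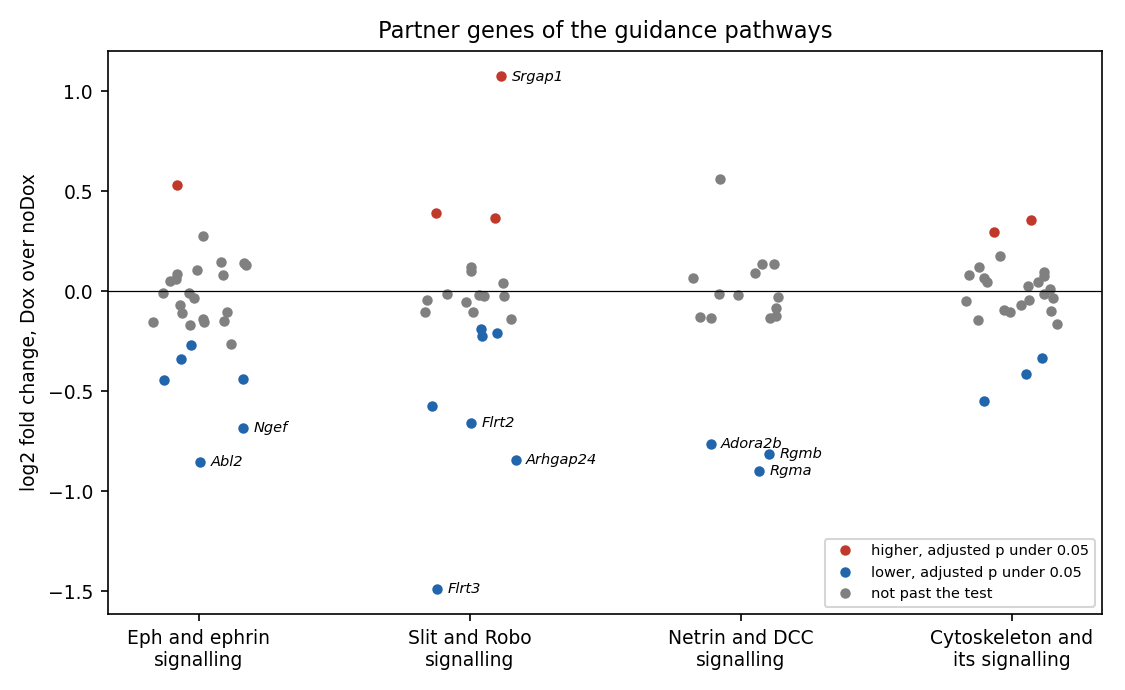
log2 fold change of Dox over noDox (vertical axis) for the tested genes of 4 partner lists, each point a gene, spread sideways at random within its list and coloured by outcome, with named genes past 0.6 in size labelled. Flrt3 (-1.49), Rgma (-0.90) and Abl2 (-0.86) lie lowest and Srgap1 (1.07) highest.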

How the data were processed

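Nuclear RNA of 2 Dox and 2 noDox libraries, each from 500000 cells, was measured by RNA-seq, per the labels. Among the tools in the submitters' processing notes are limma, edgeR, HOMER 4.10, Picard, SAMtools 1.10 and STAR 2.7.1a, for build mm10, with no roles given. The authors' deposited table holds, per the file headers, the log2 fold change and mean log2 level (read here as log2 CPM), a moderated t score, a p-value and an adjusted p-value for each of 40739 transcripts, and other columns such as exon length in bases. It holds no value per library, so the authors' limma test was used, and the spread may be technical, since nothing says the replicates were separate cultures.

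Standard errors are the ratio of log2 fold change to t, and intervals at 95% assume normal errors. Counts were inferred from the minimum of the mean log2 CPM (0.5 counts added per library). Genes with a geometric mean of at least 10 counts (0.230 CPM) were tested, and called at an adjusted p under 0.05. Intervals and floors cover counting or pooled error only. All tested members are named, with up to 6 genes of the smallest p per partner list. Srgap2, Srgap3, Cdh1, Krt19, Cd14, the fibroblast markers that fell, Zyx, Tbc1d24 and BC028777 were named after their values or positions were seen. Members and lists were chosen with earlier results of these data known. Promoters of 33 of 38 members were matched by symbol, and their starts lay within 50 bases of the row's start in 32. The TATAAA search was added after the promoters were seen. Python 3.11.15, pandas 2.3.3, scipy 1.17.1 and statsmodels 0.14.6 were used.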

Additional observations from a re-analysis of the deposited data

How the results depend on the processing

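The 7 calls among members (1 higher, 6 lower) were the same genes with a floor of 1 count, with no floor beyond having reads, with the transcript of the longest exon length, with p adjusted over the genes tested and with the median of genes tested set to 0. With standard errors widened 2.08 times, 0 members were higher and 0 lower, beside 190 and 386 of all genes, where the authors' values gave 1393 and 1654. A floor of 50 counts left 0 higher and 5 lower, since Efnb3 and Epha1 were then not tested. The settings that shift the fold changes also adjust p over the genes tested, which alone gave 1575 higher and 1817 lower of all genes. With the ribosomal protein median (-0.05) set to 0, 3 members were higher (Efna4 and Efnb1 added) and 6 lower. In all, 2169 genes were higher and 1437 lower then. The share of rises among calls was 60.1% in place of 46.4% (45.7% by the authors' adjustment). The sign of Efna1 turned (0.030 in place of -0.02). With the level trend removed 7 members were lower (Ntn3 added). A fold of at least 1.5 left 1 higher and 1 lower, and 300 and 398 of all genes.

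Widening the standard errors of the partner lists was chosen after seeing the data. No paired analysis was possible because the table holds no value per library. For the same reason edgeR, DESeq2 and leaving out each replicate were not run. Depth limits the 11 members with reads under the floor, of which 0 were called without a floor.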
